A study of Homo sapiens with 6 samples.

Results

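The genes described here encode the complexes that cut nascent RNA polymerase II transcripts and so make their 3′ ends. They are 38 genes of the 57500 Ensembl identifiers measured: 20 of the cleavage and polyadenylation machinery and 18 of Integrator, counting the single-strand DNA sensor subunits that associate with it. They were taken by name, as subunits of these complexes, by a rule that uses no measured value, though the choice of these complexes was made with earlier results of these data known. Transcript levels were measured by RNA sequencing after polyA selection in HEK293T cells, a transformed line of human embryonic kidney origin that expresses the SV40 large T antigen. The 3 control libraries are labelled as vector control with a wild-type genotype, under the title mock. The 3 PRMT1 libraries are from HEK293T cells transfected with PolyJet to take up a pcDNA3 plasmid carrying PRMT1, an arginine methyltransferase. Transfection is described for the PRMT1 condition, and the labels state neither whether control cells received an empty plasmid nor how long after transfection RNA was taken. Each library is a bulk culture, so a change in all cells and a larger change in the cells that took up the plasmid cannot be told apart, nor can fewer expressing cells and less RNA per cell. No source used here says if replicates were grown as separate cultures, so p-values reflect variation among these libraries that may be technical only.

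Values are TPM, transcript levels per unit of length scaled to the same total in each library. Between 18196661 and 23163822 reads per library were recovered from them. PRMT1 was at 368 to 397 TPM in the controls against 62895 to 84923 TPM in the PRMT1 libraries, where it took 6.29 to 8.49% of the total. The epithelial keratins KRT8 and KRT18 lay between 75.6 and 100.4 TPM in all libraries. The epithelial genes EPCAM (3.66 to 4.45 TPM) and CDH1 (2.93 to 5.39 TPM) were far lower. The kidney gene PAX2 lay between 3.40 and 4.14 TPM. PAX8 reached at most 0.068 TPM, and 5 genes of the mature nephron reached at most 0.259 TPM, so these kidney markers were absent or near 0, as were markers of blood, endothelium, liver and fibroblasts (at most 0.276 TPM). WT1 (1.17 to 1.54 against 3.27 to 4.00 TPM) and the neurofilament gene NEFM (492 to 616 against 288 to 348 TPM), known in HEK293 cells, differed between the groups, and their part in the results below was not tested. Among the 15341 genes that reached 1 TPM in 3 or more libraries, limma on log2(TPM + 1) called 40.3% higher and 8.64% lower with PRMT1 (Benjamini-Hochberg adjusted p under 0.05). Over these genes the log2 fold change had a median of 0.30. Rose and fell below mean past this test in TPM as deposited, and "scaled" marks values after median-of-ratios scaling, where the median was -0.01 and 22.5% of genes were called higher and 25.5% lower. Control 3 and PRMT1 2 stood apart from the other libraries of their groups on the leading principal components.

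Most eukaryotic messenger RNAs are cut downstream of a polyadenylation signal and given a poly(A) tail. In this machinery CPSF (cleavage and polyadenylation specificity factor) reads the signal and cuts, CstF (cleavage stimulation factor) binds the sequence downstream, cleavage factor I binds upstream, and cleavage factor II contacts the transcribing polymerase. Integrator, a separate complex in metazoans, uses a related pair of cleavage subunits to release small nuclear RNAs and short, promoter-proximal transcripts, and it brings protein phosphatase 2A to the polymerase.

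Of the 38 genes, 37 passed the filter, and 24 of these rose, 3 fell and 10 were not called. The 24 make up 64.9% of the tested subunit genes, beside 40.3% of all genes, and the 3 make up 8.11%, beside 8.64%. The median log2 fold change over the 37 was 0.65, with a range from -0.48 (INTS1) to 1.68 (INTS5). All PRMT1 libraries lay above all control libraries for 26 of the 37 and below them for 3, where 49.8% and 11.6% of all tested genes did so. After scaling, 19 genes were higher (51.4%) and 7 lower (18.9%), with a median of 0.29. Quantile normalization gave 19 higher and 5 lower, beside 20.3% and 19.4% of all genes. Without the pair of libraries that stand apart, 25 were higher and 2 lower. INTS6 passed the filter through the PRMT1 libraries alone, so its difference was favoured by the filter. NABP1, below the filter, was not tested.

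**Figure D1:**
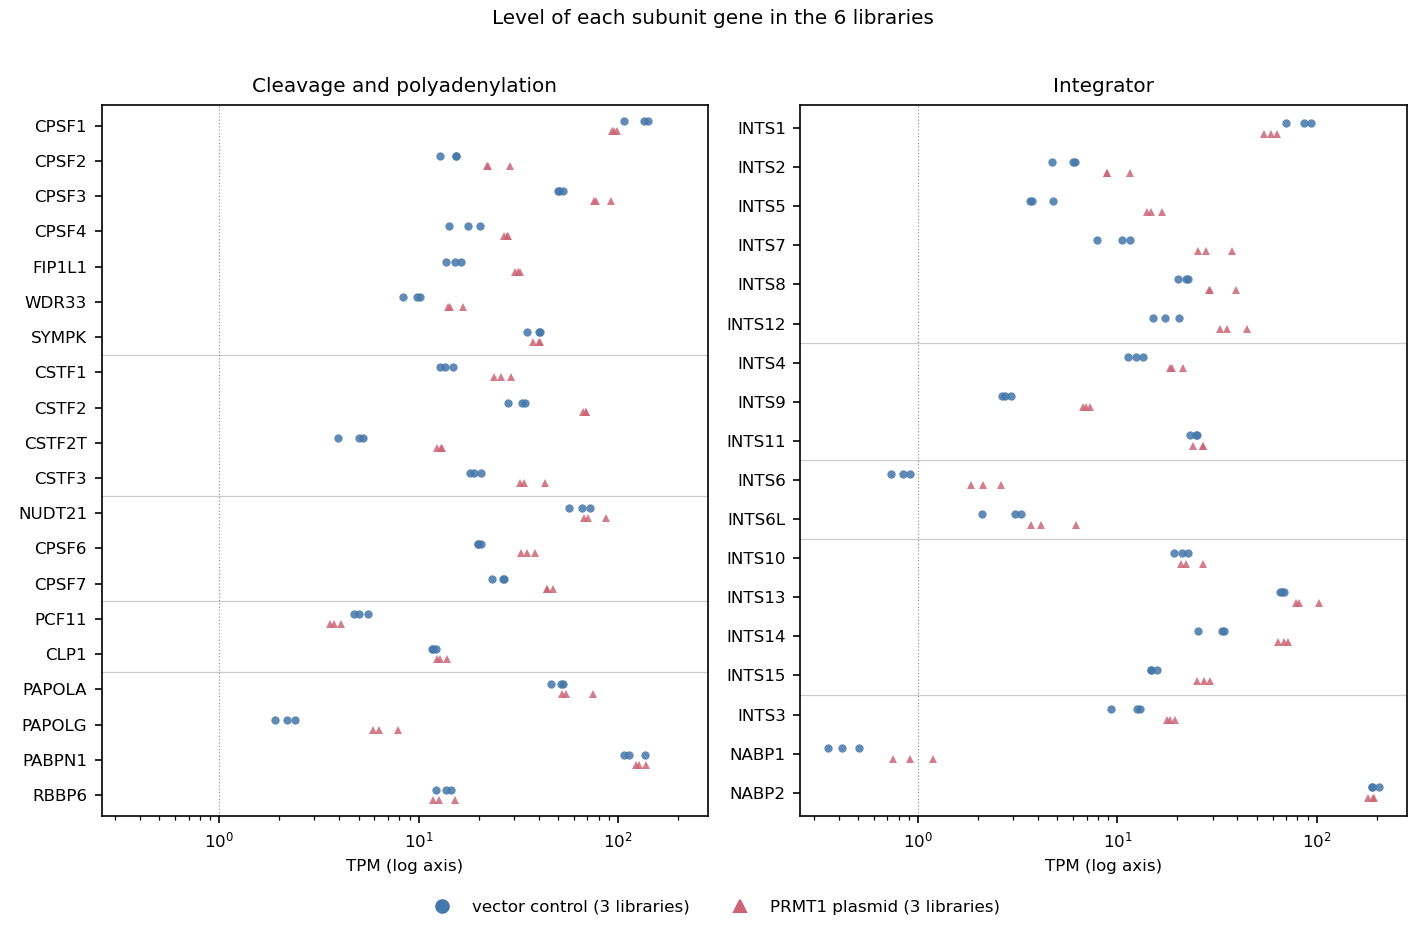
Level of each of the 38 genes in TPM, on a logarithmic axis, with 1 row per gene, circles for the 3 control libraries, triangles for the 3 PRMT1 libraries, lines between modules and a dotted line at 1 TPM. INTS5, INTS7 and PAPOLG show wide gaps between the groups, the points of NABP2, SYMPK and RBBP6 overlap, and CPSF1, INTS1 and PCF11 have their PRMT1 points to the left.

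The subunits of CPSF, with the scaffold protein symplekin, rose in 5 of 7 cases, fell in 1 and were not called in 1, with a median log2 fold change of 0.65. The cleavage pair moved together. CPSF3, the endonuclease (ENSG00000119203, chromosome 2, 9423568 to 9473101, GRCh38 with GENCODE 29), was at 50.9, 50.1 and 53.0 TPM in the controls against 75.5, 92.3 and 77.5 TPM with PRMT1 (log2 fold change 0.66, SE 0.09, limma adjusted p = 0.00122). CPSF2, its catalytically inactive partner, was at 15.5, 15.4 and 12.8 TPM against 22.1, 28.7 and 22.3 TPM (log2 fold change 0.70, SE 0.13, limma adjusted p = 0.00391). For both genes every PRMT1 library lay above every control, and PRMT1 2 was the highest.

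The subunits that read the polyadenylation signal rose as well, apart from the largest. FIP1L1, which tethers poly(A) polymerase to CPSF, was at 15.2, 16.4 and 13.7 TPM against 31.6, 32.3 and 30.6 TPM, a 2.09-fold difference of the means (log2 fold change 1.02, SE 0.09, limma adjusted p = 0.000233). The 3 PRMT1 values differed by less than the 3 control values. CPSF4, a zinc finger protein that contacts the signal, went from 17.4 ± 3.07 to 27.6 ± 0.611 TPM (SD, n = 3 each, log2 fold change 0.65, limma adjusted p = 0.00481). WDR33, the other subunit that contacts the signal, went from 9.43 ± 0.976 to 15.1 ± 1.45 TPM (SD, n = 3 each, log2 fold change 0.63, limma adjusted p = 0.00379). Both rose in TPM as deposited and missed the threshold after scaling, with adjusted p = 0.0555 for CPSF4 and 0.0757 for WDR33.

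CPSF1, the scaffold subunit that holds WDR33 and CPSF4, went the other way (ENSG00000071894, chromosome 8, 144393229 to 144409349). It was at 136, 141 and 107 TPM in the controls against 95.7, 93.7 and 99.2 TPM with PRMT1 (log2 fold change -0.40, SE 0.11, limma adjusted p = 0.0179). The groups did not overlap, but control 3 lay much closer to the PRMT1 libraries than the other controls. The call was lost without control 1 (adjusted p = 0.0652), control 2 (0.0583), PRMT1 1 (0.054) or PRMT1 2 (0.0525), after rescaling without PRMT1 (log2 fold change -0.29, adjusted p = 0.0533), and after a correction for GC content (-0.20, adjusted p = 0.211). The scaled log2 fold change was -0.78. Symplekin (SYMPK), the scaffold on which the cleavage subunits assemble, was at 40.4, 40.3 and 35.0 TPM against 40.2, 37.7 and 40.8 TPM, with overlapping groups (log2 fold change 0.04, SE 0.09, limma adjusted p = 0.747). Its scaled log2 fold change of -0.33 passed as lower (adjusted p = 0.0205).

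CstF was the module in which every gene rose, 4 of 4, and all 4 were also higher after scaling. CSTF2, the subunit that binds GU-rich sequence downstream of the cleavage site (ENSG00000101811, chromosome X, 100820359 to 100840932), was at 34.3, 33.1 and 28.1 TPM against 69.0, 69.2 and 66.8 TPM (log2 fold change 1.08, SE 0.09, limma adjusted p = 0.000184). CSTF2T, its intronless paralog (ENSG00000177613, chromosome 10, 51695487 to 51699591), was at 5.02, 5.27 and 3.95 TPM against 12.4, 13.2 and 12.9 TPM (log2 fold change 1.27, SE 0.12, limma adjusted p = 0.000272). Both genes were more than 2-fold higher by their means, 2.15-fold and 2.70-fold.

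CSTF3, the scaffold that binds the RNA-binding subunits to CPSF, was at 19.1, 18.1 and 20.5 TPM against 33.8, 42.9 and 32.3 TPM (log2 fold change 0.88, SE 0.12, limma adjusted p = 0.00112). CSTF1, a WD-repeat subunit, was at 14.9, 13.5 and 12.8 TPM against 24.0, 28.99 and 26.0 TPM (log2 fold change 0.89, SE 0.11, limma adjusted p = 0.000588). The scaled log2 fold changes of the 4 genes were 0.51 (CSTF3), 0.53 (CSTF1), 0.71 (CSTF2) and 0.94 (CSTF2T).

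Because the CstF genes moved together, the sequence upstream of their RefSeq starts is shown for 3 of them, beside that of INTS1, which fell. The stretches are from RefSeq on GRCh38.p14 and leave out bases that GENCODE 29 annotates as exons of the gene. That of CSTF3 lies inside the annotated gene span, between exons, because another annotated transcript starts further upstream. They run from 250 bases upstream of the RefSeq start and are written 5′ to 3′ on the strand of the gene. Capitals mark the ETS motif CCGGAAG, the cAMP response element TGACGTCA and the CCAAT box, each searched on both strands. CSTF2 lies at chrX:100820141-100820358 on the plus strand, and CSTF2T at chr10:51699596-51699845, CSTF3 at chr11:33161532-33161730 and INTS1 at chr7:1504390-1504639 on the minus strand.
CSTF2: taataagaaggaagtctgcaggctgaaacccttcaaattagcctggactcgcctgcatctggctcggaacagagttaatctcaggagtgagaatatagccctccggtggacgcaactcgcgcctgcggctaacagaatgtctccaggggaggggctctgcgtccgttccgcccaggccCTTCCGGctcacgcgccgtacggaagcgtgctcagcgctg
CSTF2T: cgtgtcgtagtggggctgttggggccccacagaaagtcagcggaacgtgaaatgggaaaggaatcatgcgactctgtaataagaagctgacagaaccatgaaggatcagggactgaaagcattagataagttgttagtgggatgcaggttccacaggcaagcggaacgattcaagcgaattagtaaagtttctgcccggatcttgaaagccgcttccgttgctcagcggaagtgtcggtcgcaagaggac
CSTF3: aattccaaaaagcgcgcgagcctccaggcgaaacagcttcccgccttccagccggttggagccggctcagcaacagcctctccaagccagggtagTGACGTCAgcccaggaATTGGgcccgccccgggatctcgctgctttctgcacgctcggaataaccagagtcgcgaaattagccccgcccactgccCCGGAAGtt
INTS1: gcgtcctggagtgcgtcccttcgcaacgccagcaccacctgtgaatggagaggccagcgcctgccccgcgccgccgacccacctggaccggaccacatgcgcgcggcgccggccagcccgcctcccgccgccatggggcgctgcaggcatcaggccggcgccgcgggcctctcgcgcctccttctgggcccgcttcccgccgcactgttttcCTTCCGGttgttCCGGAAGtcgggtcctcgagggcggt
CSTF2 and CSTF3 each hold 1 ETS motif, at positions -72 and -60, and INTS1 holds 2, at -38 and -26. The intronless CSTF2T holds none of the 3 motifs in this stretch. The ETS motif was thus found upstream of INTS1, whose fall was lost after correction for GC content, as well as of genes that rose. Its part in these changes was not tested.

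Over all the genes, 33 of the 38 matched the RefSeq promoter table, with 38 windows of 250 bases among the 35116 of the table. CPSF1, INTS5, INTS8, INTS9 and INTS10 had no match. The ETS motif was present in 10 of the 38 windows (26.3%) and in 8.52% of all windows. Of the 10 genes that hold it, 6 rose, 1 fell and 3 were not called, a share close to that of all 33 matched genes, of which 21 rose and 2 fell. The GC box GGGCGG was present in 71.1% of the 38 windows against 42.6% of all, and CCAAT in 47.4% against 32%. TGACGTCA was present in 4 windows (10.5%) against 1.65%, those of CSTF1, CSTF3, INTS7 and RBBP6, of which the first 3 rose. These are matches of letters, and binding was not measured. The table also holds windows of genes hardly expressed here, such as MUCL3 (at most 0.0273 TPM). No comparison was made with the windows of expressed genes alone.

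In those 3 genes that rose, TGACGTCA was followed on the strand of the gene by ATTGG, the reverse complement of CCAAT, with 8 to 10 bases between them. The pairs are shown because this arrangement was rare, and it was chosen after the windows had been inspected. They lie at chr20:56392475-56392497 on the plus strand (CSTF1), chr11:33161615-33161635 on the minus strand (CSTF3) and chr1:212035717-212035738 on the minus strand (INTS7).
CSTF1: TGACGTCAagcttgacgcATTGG
CSTF3: TGACGTCAgcccaggaATTGG
INTS7: TGACGTCAcgctctctgATTGG
Capitals mark both motifs, and the first motif begins at positions -170, -155 and -181 from the RefSeq start. CSTF1 has 2 windows, and its other window, further upstream, holds no TGACGTCA. With up to 15 bases between the motifs and either strand read, the pair was present in 13 of all 35116 windows (0.037%). The pair of CSTF1 lies within exon sequence that GENCODE 29 annotates, and that of CSTF3 inside the annotated gene span, between exons. The other tested genes of these 13 windows were DTL, LTBP1, CDC14B, ARG2 and PRKAR1A. DTL, whose window overlaps that of INTS7 on the opposite strand, had a log2 fold change of 1.64 (limma adjusted p = 7.52e-05). LTBP1, CDC14B, ARG2 and PRKAR1A were not called, with log2 fold changes of -0.01, 0.29, -0.07 and 0.42. After scaling LTBP1 (-0.37, adjusted p = 0.0184) and ARG2 (-0.45, adjusted p = 0.00377) passed as lower.

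Cleavage factor I consists of NUDT21, which binds UGUA upstream of the cleavage site, and the large subunits CPSF6 and CPSF7. Both large subunits rose. CPSF6 was at 20.6, 19.8 and 19.9 TPM against 34.9, 38.3 and 32.6 TPM (log2 fold change 0.78, SE 0.09, limma adjusted p = 0.000495). CPSF7 was at 26.4, 26.9 and 23.3 TPM against 44.3, 47.3 and 44.2 TPM (log2 fold change 0.81, SE 0.09, limma adjusted p = 0.000405). NUDT21, the RNA-binding subunit, was at 66.0, 72.5 and 57.1 TPM against 71.2, 86.9 and 67.5 TPM, and the groups overlapped (log2 fold change 0.20, SE 0.12, limma adjusted p = 0.213).

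Neither gene of cleavage factor II rose. PCF11, which binds the polymerase tail and acts in termination (ENSG00000165494, chromosome 11, 83156988 to 83187451), was at 4.72, 5.01 and 5.54 TPM against 3.58, 4.08 and 3.77 TPM. The groups did not overlap, and the call was marginal (log2 fold change -0.34, SE 0.12, limma adjusted p = 0.0487). These values rest on 294 to 323 reads in the controls and 214 to 262 with PRMT1. The call was lost without any 1 of the 6 libraries (adjusted p from 0.051 to 0.145) and after rescaling without PRMT1 (log2 fold change -0.25, adjusted p = 0.109), and it held after scaling (-0.65, adjusted p = 0.00383) and after GC correction (-0.45, adjusted p = 0.0139). CLP1, an RNA kinase that also takes part in tRNA splicing, was at 11.6, 11.8 and 12.2 TPM against 12.4, 13.8 and 12.9 TPM, without overlap but not called (log2 fold change 0.12, SE 0.09, limma adjusted p = 0.297). The ratio of PCF11 to CLP1 within a library, singled out afterwards and not tested, was 0.406, 0.423 and 0.456 against 0.289, 0.295 and 0.293.

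Of the poly(A) polymerases, the nuclear poly(A)-binding protein and RBBP6, only PAPOLG passed the test. PAPOLG, a nuclear paralog of the main polymerase (ENSG00000115421, chromosome 2, 60756230 to 60802085), was at 2.41, 2.19 and 1.91 TPM against 5.88, 7.92 and 6.33 TPM, 3.10-fold higher by the means (log2 fold change 1.28, SE 0.15, limma adjusted p = 0.000513). PAPOLA, the canonical polymerase, was at 53.2, 51.6 and 46.2 TPM against 54.8, 75.1 and 52.5 TPM (log2 fold change 0.25, SE 0.14, limma adjusted p = 0.173). PRMT1 2 was high and PRMT1 3 lay among the controls. PABPN1, which sets the length of the growing tail, was at 119 ± 15.7 against 130.0 ± 7.88 TPM (SD, n = 3 each, limma adjusted p = 0.312), and without control 3 it passed as higher (log2 fold change 0.24, adjusted p = 0.0364). RBBP6, which activates cleavage, was at 13.5 ± 1.16 against 13.2 ± 1.78 TPM (SD, n = 3 each, log2 fold change -0.03, limma adjusted p = 0.841) and passed as lower after scaling (-0.39, adjusted p = 0.0262).

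**Figure D2:**
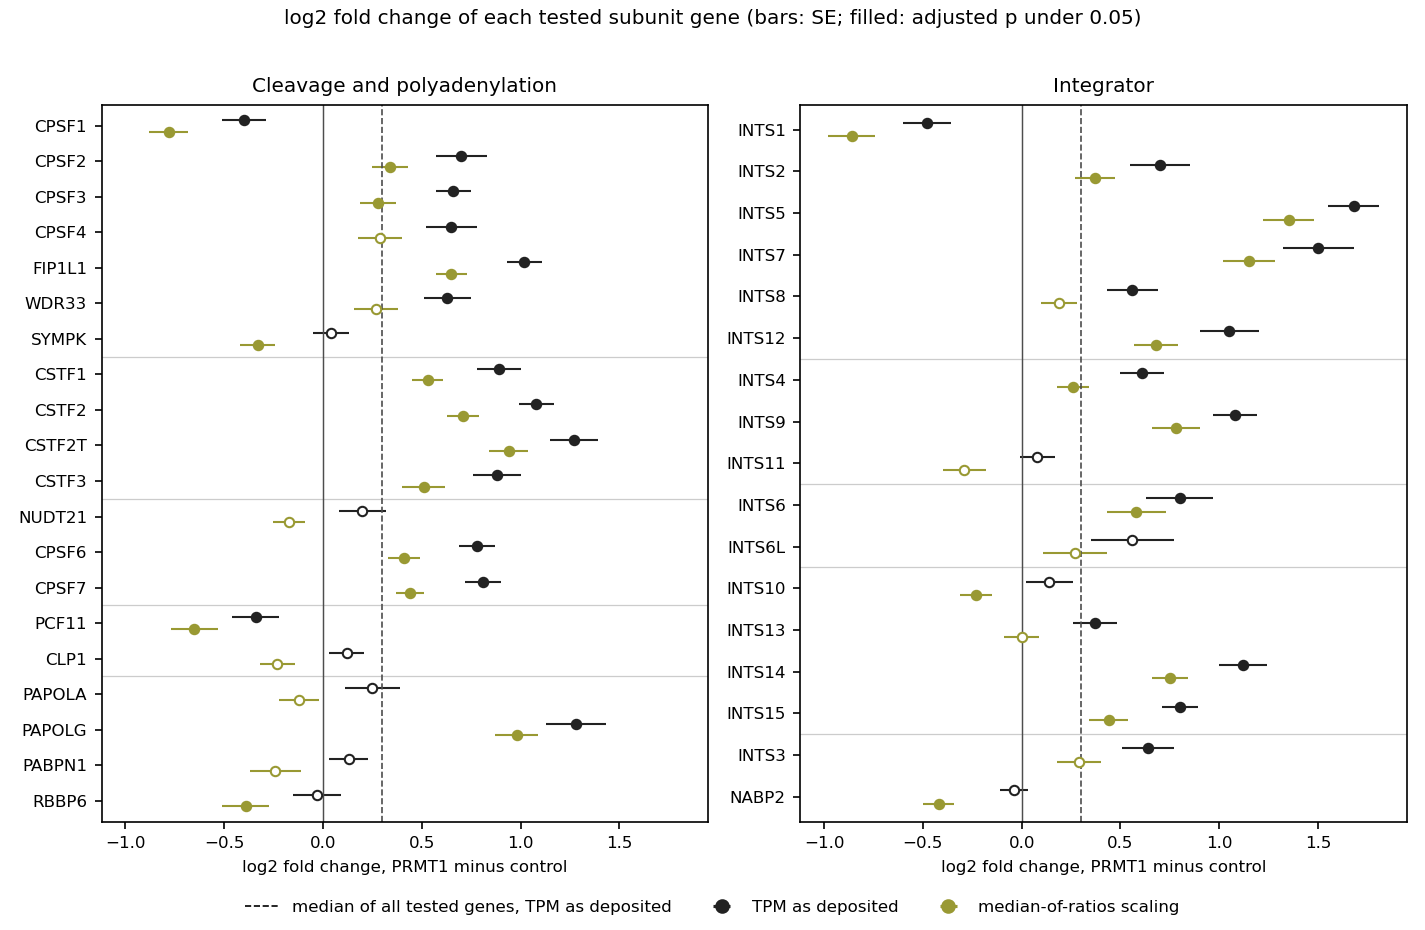
Log2 fold change of each of the 37 tested genes, PRMT1 minus control on log2(TPM + 1), in TPM as deposited (black) and after median-of-ratios scaling (olive), with bars for the standard error, filled points for adjusted p under 0.05 and a dashed line at the median of all tested genes in TPM as deposited, 0.30. All 4 CstF genes are filled and above 0 on both scales, and CPSF1, PCF11 and INTS1 are filled and below 0 on both.

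The backbone and shoulder of Integrator held both extremes, with 5 genes that rose and 1 that fell of 6. INTS5, a shoulder subunit (ENSG00000185085, chromosome 11, 62646848 to 62653302), was at 3.65, 4.75 and 3.74 TPM against 14.02, 14.7 and 16.7 TPM. This 3.74-fold difference of the means was the largest of the 38 genes (log2 fold change 1.68, SE 0.13, limma adjusted p = 0.000129), and it rests on 72 to 93 reads in the controls and 301 to 312 with PRMT1. INTS7, a backbone subunit (ENSG00000143493, chromosome 1, 211940399 to 212035542), was at 11.5, 10.5 and 7.90 TPM against 27.8, 37.5 and 25.3 TPM (log2 fold change 1.50, SE 0.18, limma adjusted p = 0.00061). For both genes the lowest PRMT1 library lay far above the highest control.

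INTS1, the largest subunit and a core of the backbone (ENSG00000164880, chromosome 7, 1470277 to 1504367), was at 86.3, 93.2 and 70.2 TPM against 59.1, 54.6 and 63.1 TPM (log2 fold change -0.48, SE 0.12, limma adjusted p = 0.0109). The groups did not overlap, and the call held without any 1 library. It was lost after GC correction (-0.22, adjusted p = 0.181). In TPM the level of INTS1 was 18.8 to 23.7 times that of INTS5 in the controls and 3.71 to 4.22 times with PRMT1, a ratio singled out after the values were seen and not tested.

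The other genes of this module rose. INTS12, a PHD finger protein that binds INTS1, was at 20.5, 17.2 and 15.1 TPM against 35.5, 44.5 and 32.6 TPM (log2 fold change 1.05, SE 0.15, limma adjusted p = 0.00121). INTS2, another backbone subunit, went from 5.61 ± 0.800 to 9.77 ± 1.55 TPM (SD, n = 3 each, log2 fold change 0.70, limma adjusted p = 0.00624). INTS8, a shoulder subunit that contacts protein phosphatase 2A in the complex, went from 21.6 ± 1.36 to 32.5 ± 6.08 TPM (SD, n = 3 each, log2 fold change 0.56, limma adjusted p = 0.0109). After scaling INTS8 missed the threshold (log2 fold change 0.19, adjusted p = 0.129). After quantile normalization INTS2 (0.25, adjusted p = 0.0947) and INTS8 (0.26, adjusted p = 0.0794) both did.

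In the cleavage module of Integrator the pair of cleavage subunits diverged. INTS11, the endonuclease (ENSG00000127054, chromosome 1, 1311585 to 1324691), was at 25.2, 24.8 and 23.1 TPM against 26.8, 23.9 and 26.9 TPM, with overlapping groups (log2 fold change 0.08, SE 0.09, limma adjusted p = 0.479). INTS9, its catalytically inactive partner (ENSG00000104299, chromosome 8, 28767661 to 28890242), was at 2.74, 2.63 and 2.92 TPM against 6.71, 6.99 and 7.26 TPM, 2.53-fold higher by the means (log2 fold change 1.08, SE 0.11, limma adjusted p = 0.000351). INTS4, the scaffold of the module, was at 13.4, 12.4 and 11.3 TPM against 18.3, 21.2 and 18.9 TPM (log2 fold change 0.61, SE 0.11, limma adjusted p = 0.00261). INTS11 passed as higher after GC correction, at 0.30 (adjusted p = 0.0202).

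The ratio of INTS9 to INTS11 within a library was 0.109, 0.106 and 0.127 in the controls and 0.251, 0.293 and 0.270 with PRMT1, 2.39-fold higher. For the homologous pair of CPSF, the ratio of CPSF2 to CPSF3 was 0.304, 0.308 and 0.242 against 0.293, 0.311 and 0.288, with overlapping groups. The ratio of the scaffolds, INTS4 to SYMPK, was 0.332, 0.307 and 0.323 against 0.454, 0.563 and 0.463, higher in all PRMT1 libraries. Across the homologs, INTS9 to CPSF2 was 1.52-fold higher and INTS11 to CPSF3 was at 0.668 of the control ratio, so the cleavage partners shifted in opposite directions against CPSF. A ratio within a library is unchanged by a scaling factor common to all its genes, but not by GC correction or quantile normalization. With GC correction the log2 fold change went from 0.08 to 0.30 for INTS11 and from 0.66 to 0.56 for CPSF3. It went from 1.08 to 1.11 for INTS9 and from 0.70 to 0.51 for CPSF2. The ratios of this paragraph were chosen after the values were seen and were not tested.

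INTS6 and INTS6L, paralogs that link Integrator to protein phosphatase 2A, had low levels. INTS6 was at 0.908, 0.835 and 0.729 TPM against 2.12, 2.62 and 1.84 TPM (log2 fold change 0.80, SE 0.17, limma adjusted p = 0.00581), from 109 to 145 reads in the controls and 267 to 430 with PRMT1. INTS6L was at 3.05, 3.27 and 2.09 TPM against 4.14, 6.23 and 3.66 TPM, without overlap but not called (log2 fold change 0.56, SE 0.21, limma adjusted p = 0.0548). Without PRMT1 3 it passed (log2 fold change 0.69, adjusted p = 0.0441). The call of INTS6 was lost after quantile normalization (0.40, adjusted p = 0.065).

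Of the auxiliary arm of Integrator, INTS14, INTS15 and INTS13 rose and INTS10 was not called. INTS14, which pairs with INTS13 (ENSG00000138614, chromosome 15, 65578753 to 65611289), was at 33.6, 34.2 and 25.3 TPM against 64.2, 71.6 and 68.9 TPM (log2 fold change 1.12, SE 0.12, limma adjusted p = 0.000431). INTS15, the subunit assigned to Integrator most recently, was at 14.8, 15.9 and 14.8 TPM against 25.01, 27.2 and 29.1 TPM (log2 fold change 0.80, SE 0.09, limma adjusted p = 0.000529). INTS13, which binds nucleic acid together with INTS10 and INTS14, was at 66.8, 65.5 and 68.3 TPM against 81.9, 102.4 and 78.5 TPM (log2 fold change 0.37, SE 0.11, limma adjusted p = 0.0215). This rise was close to the median of all genes: its scaled log2 fold change was -0.002, and the call was lost without control 1 (adjusted p = 0.0601) or control 2 (0.0599). INTS10 had overlapping groups, 21.0 ± 1.75 against 23.3 ± 3.20 TPM (SD, n = 3 each, log2 fold change 0.14, limma adjusted p = 0.363), and passed as lower after scaling (-0.23, adjusted p = 0.0492).

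INTS3, NABP1 and NABP2 form, with INIP, the SOSS complex that binds single-stranded DNA. INTS3, its scaffold, was at 13.0, 12.5 and 9.28 TPM against 17.7, 18.4 and 19.4 TPM (log2 fold change 0.64, SE 0.13, limma adjusted p = 0.00592), and missed the threshold after scaling (0.29, adjusted p = 0.066). NABP2, the more abundant DNA-binding subunit, was at 189, 206 and 189 TPM against 181, 191 and 194 TPM (log2 fold change -0.04, SE 0.07, limma adjusted p = 0.615). It was the most abundant of the 38 transcripts, its groups overlapped, and it passed as lower after scaling (-0.42, adjusted p = 0.00448). NABP1, the paralog, was at 0.416, 0.352 and 0.507 TPM against 0.909, 1.18 and 0.749 TPM, without overlap, from 29 to 41 reads in the controls and 59 to 105 with PRMT1.

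Pairs of paralogs were compared by their ratio within each library, with an exact two-sided permutation test of 3 against 3 libraries for each of 5 pairs. The ratio of PAPOLG to PAPOLA was 0.0452, 0.0425 and 0.0412 in the controls and 0.107, 0.105 and 0.121 with PRMT1, 2.58-fold higher (log2 difference 1.37, pooled SD 0.09). The ratio of CSTF2T to CSTF2 was 0.146, 0.159 and 0.141 against 0.180, 0.190 and 0.193 (log2 difference 0.34, pooled SD 0.08). In both pairs the less abundant paralog had the larger rise, without overlap between the groups.

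In TPM the less abundant member also gained in the other pairs without overlap. By reads INTS6 was not clearly the rarer paralog, with 109 to 145 in the controls against 88 to 140 for INTS6L. Its lower TPM there rests on its exonic length of 25509 bases, against 7193 for INTS6L. INTS6 passed the filter through the PRMT1 libraries alone, and NABP1 did not pass it. The ratio of INTS6L to INTS6 was 3.36, 3.92 and 2.87 against 1.95, 2.38 and 2.00 (log2 difference -0.68, pooled SD 0.19). NABP1 to NABP2 had ratios of 0.00221, 0.00171 and 0.00268 against 0.00501, 0.00617 and 0.00386 (log2 difference 1.19, pooled SD 0.33). The ratio of CPSF7 to CPSF6 overlapped between the groups, 1.28, 1.36 and 1.17 against 1.27, 1.23 and 1.35 (log2 difference 0.02, pooled SD 0.09, exact permutation p = 1). The 4 pairs without overlap each gave an exact permutation p = 0.1, the smallest that 20 splits of 6 libraries allow, or 0.12 adjusted over the 5 pairs, so this design cannot pass 0.05. Across the 37 tested genes the log2 fold change was lower at higher mean log2(TPM + 1) (Pearson -0.41, Spearman -0.36), as across all 15276 genes with a GC value (-0.26 and -0.26), and its part in these ratios was not tested.

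**Figure D3:**
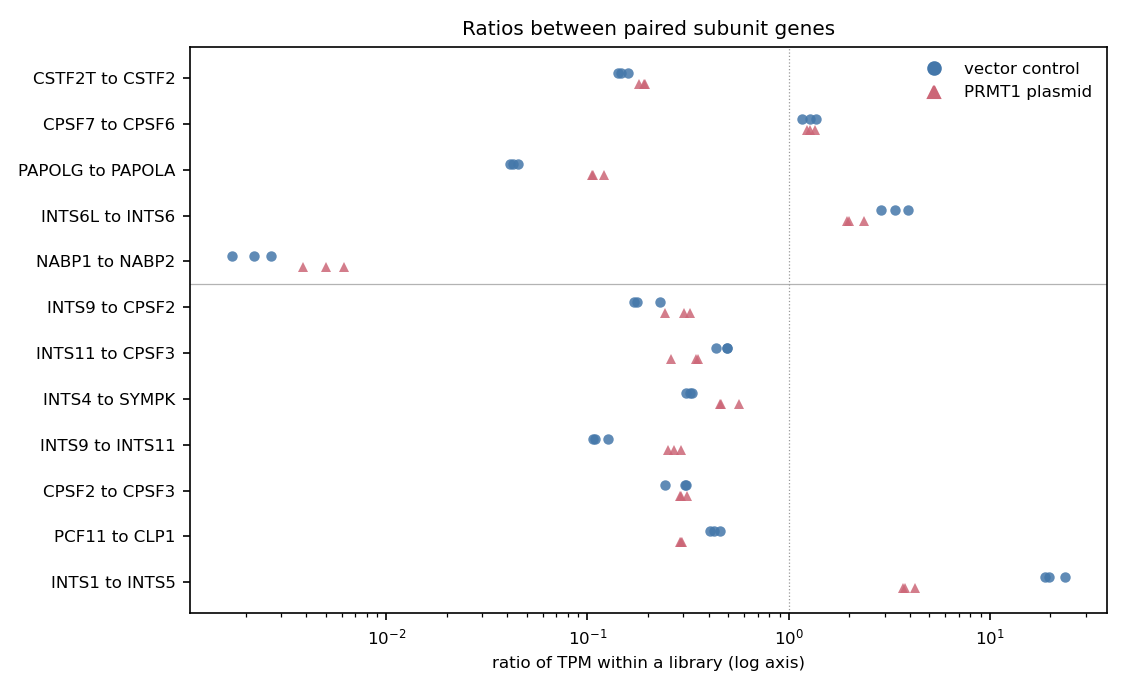
Ratio of the TPM of 2 subunit genes within each library, on a logarithmic axis, with circles for control and triangles for PRMT1 libraries; the 5 paralog pairs stand above the line and the pairs chosen after the values were seen below it. PAPOLG to PAPOLA and INTS9 to INTS11 are higher in all PRMT1 libraries, INTS1 to INTS5 is lower, and CPSF7 to CPSF6 and CPSF2 to CPSF3 overlap.

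By complex, the counts were as follows. Of the 20 cleavage and polyadenylation genes 12 rose (60%) and 2 fell (10%), with a median log2 fold change of 0.65. Of the 17 tested Integrator genes 12 rose (70.6%) and 1 fell (5.88%), with a median of 0.64. Of all tested genes 40.3% rose and 8.64% fell. The scaled counts were 10 higher and 4 lower of 20, and 9 higher and 3 lower of 17, beside 22.5% higher and 25.5% lower of all genes. After quantile normalization the order of the complexes by share called higher was reversed, while the order of their medians was not. Of the cleavage and polyadenylation genes 11 were higher (55%) and 4 lower, with a median of 0.34. Of the Integrator genes 8 were higher (47.1%) and 1 lower, with a median of 0.26, beside 20.3% and 19.4% of all genes. No test was made over a complex.

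The mean log2(TPM + 1) over the 20 cleavage and polyadenylation genes was 4.48, 4.47 and 4.38 in the controls and 4.91, 5.09 and 4.92 with PRMT1. Over the 18 Integrator genes it was 3.83, 3.84 and 3.65 against 4.35, 4.55 and 4.37. In both complexes control 3 was the lowest control and PRMT1 2 the highest library. Over tested genes the mean log2 fold change of Integrator exceeded that of cleavage and polyadenylation by 0.13 (pooled SD between libraries 0.04), and by 0.05 with a pseudocount of 5 TPM. The direction was therefore the same with these pseudocounts, the size depended on the pseudocount, and no test was made of this difference. INTS6, which passed the filter through the PRMT1 libraries alone, is part of the Integrator mean and of its count of rises.

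Transcript GC content varied with the fold changes across the 37 tested genes, as it did across all genes. The correlation was Pearson -0.28 and Spearman -0.24 over the 37, beside -0.21 and -0.24 over 15276 genes, a description across genes that share the same 6 libraries. The most GC-rich of the 37 are INTS1 (65.2% GC) and CPSF1 (62.3%), which fell, and INTS11 (63.3%), which was not called. INTS15 (60.5%) and INTS5 (59.8%), which follow them, rose. The part of GC content in these changes was not tested. After each library was corrected for GC content, 25 of the 37 were higher and 1, PCF11, was lower, where 40.2% and 7.55% of all genes were. INTS5 stayed at the top.

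**Figure D4:**
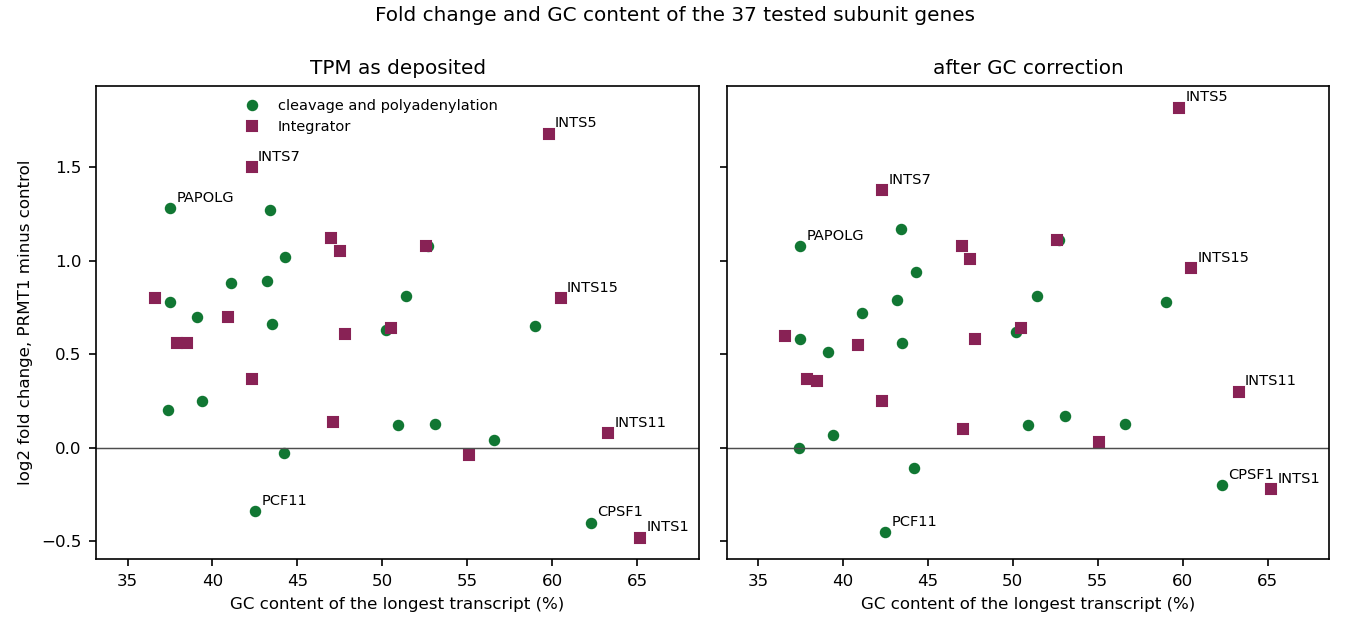
Log2 fold change against the GC content of the longest transcript, in percent, for the 37 tested genes, in TPM as deposited and after GC correction. INTS1 and CPSF1, at 65.2 and 62.3% GC, move towards 0 after correction, while PCF11 at 42.5% GC does not.

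Some of these genes share exonic sequence with others, and the strand setting of the counting is not given in the sources used here. Opposite-strand genes overlap 27.7% of the exonic bases of FIP1L1 (LNX1), 25.6% of WDR33 (SFT2D3), 21.7% of INTS12, 20.7% of INTS8 (CCNE2), 17% of PCF11 and 14.5% of CSTF3. On the same strand 18% of FIP1L1, 16.8% of PABPN1 (the readthrough gene BCL2L2-PABPN1) and 9.3% of INTS5 are shared. Reads from shared bases cannot be assigned with certainty, and the size of this effect on the levels was not tested. CPSF1P1, a pseudogene of CPSF1, was at 2.15 to 2.95 TPM against 4.63 to 5.12 TPM, opposite in direction to CPSF1. INTS4P1, a pseudogene of INTS4, was at 0.0659 to 0.251 TPM against 0.853 to 1.32 TPM. INTS4P2, another pseudogene of INTS4, had overlapping groups, 0.114 to 0.787 TPM against 0.52 to 0.822 TPM.

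Genes that work beside these complexes were counted from 5 lists, to be read beside the 40.3% of all tested genes that rose and 8.64% that fell, and after scaling the 22.5% higher and 25.5% lower. Of 14 genes of transcription termination and the polymerase tail, 13 rose and 0 fell (median log2 fold change 0.96), and 10 were higher after scaling. The largest rises were those of RPRD2, which binds the tail (2.01), and PPP1R10, a phosphatase partner in termination (1.99). XRN2, the exonuclease that follows cleavage, was not called (0.25, limma adjusted p = 0.261).

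Of 7 genes of histone messenger 3′ processing, which uses CPSF3 and symplekin without a poly(A) tail, 5 rose and 0 fell (median 1.03), with 4 higher and 2 lower after scaling. ZNF473, a component of the histone cleavage complex, had a log2 fold change of 1.72, NPAT, the activator of histone genes, 1.47, and CASP8AP2 1.18. Of 7 factors for small nuclear RNA promoters, 4 rose and 1 fell, with SNAPC4 at 1.71, ZNF143 at 0.89, SNAPC1 at 0.75 and SNAPC2 at -0.25. The fall of SNAPC2 was lost after GC correction (-0.01, adjusted p = 0.951) and after rescaling without PRMT1 (-0.15, adjusted p = 0.202). The scaled counts of this list were 3 higher and 2 lower.

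Of 8 other poly(A) tail genes 6 rose and 2 fell, with 4 higher and 2 lower after scaling. The terminal nucleotidyltransferases TUT1 (1.13), TENT2 (0.92) and TENT4B (0.87) were among those that rose. The cytoplasmic poly(A)-binding proteins PABPC1 (-0.42) and PABPC4 (-0.40) fell. PABPC1 was at 1675, 1701 and 1596 TPM against 1174, 1399 and 1160 TPM, without overlap. After quantile normalization the calls of PABPC1 (-0.08, adjusted p = 0.538) and TENT4B (0.41, adjusted p = 0.105) were lost.

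Of 10 pausing factors and Integrator partners 3 rose and 2 fell (median 0.09), a share of rises (30%) near that of all genes, and 1 was higher and 5 were lower after scaling. INIP, the SOSS partner of INTS3, had a log2 fold change of 0.76, PPP2CA, the catalytic subunit of protein phosphatase 2A, 0.57, and SUPT5H, an elongation factor, 0.32. PPP2R1A, the scaffold subunit of that phosphatase (-0.27), and NELFE, of the pausing factor NELF (-0.25), fell. After scaling SUPT5H was at -0.05 and PPP2CA at 0.20, neither called (adjusted p = 0.687 and 0.0739). The falls of PPP2R1A and NELFE were lost after rescaling without PRMT1 (adjusted p = 0.125 and 0.0989). PPP2R1A also lost its call after quantile normalization (adjusted p = 0.113), as did SUPT5H (0.141), and NELFE after GC correction (0.0893). Whether the lists differ from one another was not tested.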

How the data were processed

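Libraries were made from polyA-selected RNA of HEK293T cells, 3 per group, per the labels' protocols. The authors deposited TPM per Ensembl gene. Tools named in the submitters' processing notes are Trimmomatic 0.36, STAR 2.5.2b, featureCounts, Subread 1.5.2, with the build GRCh38. Not given in the sources used here were the annotation, the strand setting and the computation of TPM. Because TPM sums to a fixed total, the share taken by PRMT1 lowers all other values.

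Gene models came from GENCODE 29, which held 56898 of 57500 identifiers. Low TPM values times exonic length gave whole reads within 0.05 for 95.49 to 95.7% of values under 50 reads, where chance gives 10%. In these units 3 reads of a 1 kb gene are 0.459 to 0.526 TPM. This covers counting error only. Replicate libraries differed by more than counting noise.

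Genes that reached 1 TPM in 3 or more libraries were tested between groups with limma 3.58.1 (lmFit and eBayes with trend on log2(TPM + 1), R 4.3.3), with Benjamini-Hochberg adjustment over 15341 genes. Fold changes on this scale understate those of low genes. The procedure was tested on simulated data. All 38 genes are named, and of each related list up to 3 genes with the largest called changes per direction, apart from 1 that is not reported here. The rule for the 38 genes uses no measured value, but these genes and all related lists were proposed with earlier results of these data known, so no count over them is independent evidence. Alternatives covered the pseudocount, filter, scaling, GC content (lowess), variance trend, replicate block and libraries left out. Counts of arginine-glycine motifs in the proteins were not run.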

Additional observations from a re-analysis of the deposited data

How the results depend on the processing

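Of the 24 genes that rose, 17 were called higher under all 18 alternatives: CPSF2, CPSF3, FIP1L1, the 4 CstF genes, CPSF6, CPSF7, PAPOLG, INTS4, INTS5, INTS7, INTS9, INTS12, INTS14 and INTS15. PAPOLG, INTS5 and INTS9 passed the filter of 5 TPM through the PRMT1 libraries alone. That alternative therefore favoured their rise and says nothing on it. Of the 3 that fell (CPSF1, PCF11, INTS1), 0 were. The number higher ranged from 19 to 25. The number lower was 7 after median-of-ratios scaling, 5 after quantile normalization, 1 without PRMT1, 1 after GC correction, 1 with the replicate block and GC correction, and 1 to 2 with a library left out. Among the cleavage and polyadenylation genes, where 2 fell, the number lower was 1 with no filter, 1 at a filter of 5 TPM, 4 after median-of-ratios scaling, 4 after quantile normalization, 0 without PRMT1, 1 after GC correction, 1 with the replicate block, 1 with the block and GC correction, 1 without control 3 and PRMT1 2 together, and 0 to 1 with a library left out. Of Integrator genes 3 were lower after median-of-ratios scaling, 0 after GC correction and 0 with the block and GC correction. Over all genes, 6190 were higher and 1325 lower. Median-of-ratios scaling gave 3448 and 3913, quantile normalization 3109 and 2979. The number lower was 880 without PRMT1 and 2115 without control 3 and PRMT1 2. The cause of each shift was not tested.

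Log2 fold changes changed sign only for genes not called in TPM as deposited, apart from INTS13 (-0.002 after median-of-ratios scaling). That scaling gave SYMPK -0.33, NUDT21 -0.17, CLP1 -0.23, PAPOLA -0.12, PABPN1 -0.24, INTS11 -0.29 and INTS10 -0.23. Quantile normalization gave SYMPK -0.19, CLP1 -0.29, INTS11 -0.23, INTS10 -0.19 and NABP2 0.02. Without PRMT1, RBBP6 was at 0.07 and NABP2 at 0.06. NABP2 was at 0.03 after GC correction, with and without the replicate block. Without control 3, SYMPK was at -0.03 and RBBP6 at 0.02. RBBP6 ranged from -0.13 to 0.04 with a library left out, the highest without PRMT1 3, and INTS10 was at -0.03 without control 3 and PRMT1 2. The difference between the complexes, 0.13, was 0.18 with a pseudocount of 0.1 TPM and 0.05 with 5 TPM. The log2 ratio of CPSF7 to CPSF6 ranged from -0.04 to 0.07 with a library left out, and was -0.02 without PRMT1 3.

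Libraries with the same replicate number did not deviate together (correlations -0.033, 0.059 and 0.020). With 3 libraries per group this cannot show whether they share a culture or batch. With the replicate number as a block, 25 genes were higher and 2 lower, PCF11 lost its call (adjusted p = 0.0748) and INTS6L gained one (0.0215). Depth is lowest for NABP1 (29 to 41 reads in the controls), INTS5 (72 to 93), INTS9 (77 to 84), INTS6L (88 to 140), PAPOLG (95 to 128) and CSTF2T (95 to 129). PCF11, INTS6 and INTS6L were not tested at a filter of 5 TPM.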
